A study of Mus musculus with 143 samples.

Results

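A set of 49 genes that act in the G2 phase and in mitosis was followed through 143 single mouse microglia. The set was a fixed list of gene symbols, and all 49 were among the 23337 gene rows of the deposited count table. Every cell came from wild type male C57BL/6N mice (strain label C57BL6N), pooled across animals, at postnatal day 7, with no treatment given in the labels. The cerebella (label CB) were dissociated, and live cells in the gate CD45lowCD11b+Gpnmb+Clec7a+ were sorted singly. The gate enriches for the proliferative-region-associated microglia (PAM) that display Gpnmb and Clec7a, and there was no second gate, genotype or age to compare with. Each cell became a full-length Smart-seq2 library on plate 1 (95 cells) or plate 2 (48 cells). The labels tie no cell to an animal, so the 143 cells are 1 sample, cells are not replicates, and no test was made. The name of the pooled sequencing library contains the word adult, whereas the age label and the title give postnatal day 7.

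Before a cell divides it makes a wave of transcripts in G2. The kinase Cdk1, held by its cyclins, starts mitosis. Condensin and topoisomerase II fold and untangle the chromosomes, and kinetochores tie them to the spindle. A checkpoint built on Mad and Bub proteins holds the anaphase-promoting complex back until every chromosome is attached, and the passenger complex and centralspindlin then lead into cytokinesis. In resting cells many of these genes are kept silent by the DREAM complex, which binds a promoter element called the cell cycle genes homology region, and the CCAAT-binding factor NF-Y acts at many of the same promoters. Microglia divide locally in the early postnatal brain.

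RefSeq (build GRCm38.p6) gave a promoter, from 250 bases before to 50 after the gene start, for 41 members. Smc4, Tpx2, Incenp, Aurkb, Pbk, Ccna2, Cdca2 and Shcbp1 were not matched. Each was searched on both strands for TTTGAA (reverse TTCAAA), the core letters of the homology element, and for CCAAT (reverse ATTGG), and matches that shared a base were all counted. TTTGAA was present in 32 of the 41 member genes (78%), against 20.2% of all 27025 genes of the table and 17.9% of its 32851 promoters. CCAAT was present in 33 member genes (80.5%), against 41.1% of all genes and 37.4% of promoters. Both motifs stood in 28 member genes (68.3%), against 7.97% of all genes and 6.95% of promoters. Among the 5704 genes with a promoter that were read in at least 10% of the cells, 14.1% held TTTGAA and 43.3% held CCAAT. The list of other mitotic genes outside the set held TTTGAA in 31 of its 57 matched genes (54.4%), CCAAT in 37 (64.9%) and both in 23 (40.4%). The list of 53 S-phase genes held CCAAT in 23 of its 38 matched genes (60.5%) but TTTGAA in 5 (13.2%). A match says only that the letters are there, and neither binding nor activity was measured.

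The 200 bases before the start are printed for 8 members that recur in the results on detection. Bub3, the member read in most cells, and Cdk1, the next most frequent with a promoter, had both motifs. Top2a and Mki67, present in every cell with 23 or more members, had several matches to each. Ncapg, Cdc20 and Ube2c were present mostly in those cells. Birc5 held neither motif and was read as often as Top2a. The Bub3 stretch lies at chr7:131560170-131560369 (plus strand), Cdk1 at chr10:69352913-69353112 (minus strand) and Ncapg at chr5:45669725-45669924 (plus strand). That of Top2a lies at chr11:99024190-99024389 (minus strand), Mki67 at chr7:135716380-135716579 (minus strand) and Cdc20 at chr4:118437344-118437543 (minus strand). That of Ube2c lies at chr2:164769729-164769928 (plus strand) and Birc5 at chr11:117849037-117849236 (plus strand). Each line reads 5′ to 3′ on the gene's strand, and capitals mark matches to the 2 motifs on either strand.
Bub3: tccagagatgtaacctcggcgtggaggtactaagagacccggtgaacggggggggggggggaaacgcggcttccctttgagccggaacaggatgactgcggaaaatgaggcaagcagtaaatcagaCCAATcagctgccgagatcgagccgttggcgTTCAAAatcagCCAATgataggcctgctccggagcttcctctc
Cdk1: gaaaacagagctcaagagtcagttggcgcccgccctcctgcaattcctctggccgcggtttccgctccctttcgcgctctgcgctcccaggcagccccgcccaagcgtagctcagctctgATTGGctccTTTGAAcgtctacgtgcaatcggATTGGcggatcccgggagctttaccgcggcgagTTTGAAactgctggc
Ncapg: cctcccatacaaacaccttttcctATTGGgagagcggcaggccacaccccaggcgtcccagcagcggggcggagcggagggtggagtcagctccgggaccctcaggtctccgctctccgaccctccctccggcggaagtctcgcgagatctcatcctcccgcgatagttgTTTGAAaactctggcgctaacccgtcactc
Top2a: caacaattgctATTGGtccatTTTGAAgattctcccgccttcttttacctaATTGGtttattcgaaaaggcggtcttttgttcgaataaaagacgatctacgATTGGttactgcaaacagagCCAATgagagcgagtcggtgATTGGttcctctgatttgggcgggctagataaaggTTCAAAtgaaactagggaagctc
Mki67: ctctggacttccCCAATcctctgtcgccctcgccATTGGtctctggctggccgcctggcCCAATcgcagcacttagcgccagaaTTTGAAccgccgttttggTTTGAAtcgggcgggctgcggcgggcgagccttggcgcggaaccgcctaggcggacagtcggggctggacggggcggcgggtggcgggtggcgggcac
Cdc20: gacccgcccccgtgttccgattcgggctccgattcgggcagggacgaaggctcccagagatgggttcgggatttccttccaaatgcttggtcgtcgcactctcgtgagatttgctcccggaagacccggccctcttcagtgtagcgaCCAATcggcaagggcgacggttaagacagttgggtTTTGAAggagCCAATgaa
Ube2c: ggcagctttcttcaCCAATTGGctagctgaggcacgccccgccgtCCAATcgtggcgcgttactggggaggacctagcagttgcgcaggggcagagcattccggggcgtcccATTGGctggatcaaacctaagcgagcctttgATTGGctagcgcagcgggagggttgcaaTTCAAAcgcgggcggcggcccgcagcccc
Birc5: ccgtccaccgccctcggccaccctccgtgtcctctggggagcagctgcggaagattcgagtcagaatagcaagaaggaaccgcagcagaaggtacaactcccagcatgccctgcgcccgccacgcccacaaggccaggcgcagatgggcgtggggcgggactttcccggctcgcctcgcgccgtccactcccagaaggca
In Cdk1, a TTTGAA lies just before the start and another lies farther upstream, each downstream of a reverse CCAAT. In Ube2c and Top2a the CCAAT letters recur along the whole stretch.

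**Figure D1:**
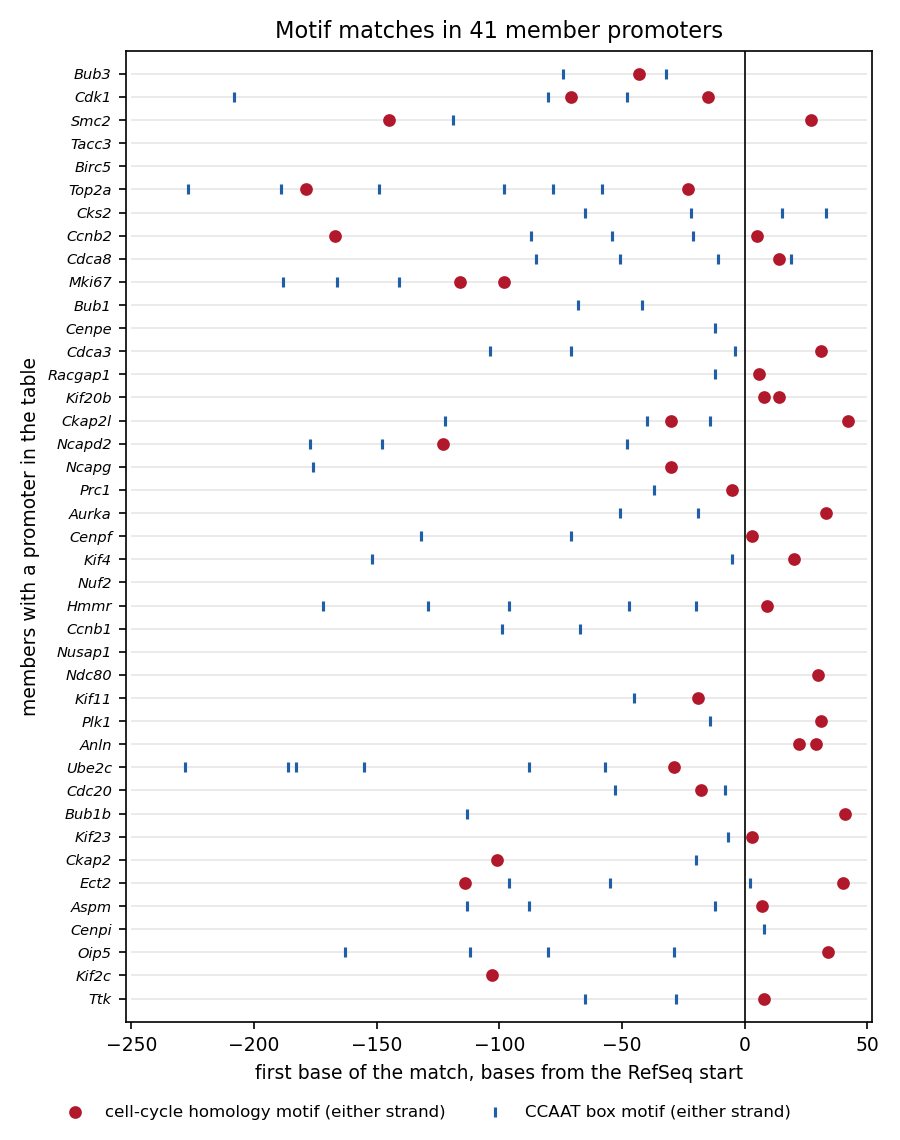
Position of each motif match in the 41 member promoters, in bases from the RefSeq start (vertical line); red circles are TTTGAA, blue ticks CCAAT, either strand, and members run from most often read at the top. TTTGAA matches gather around the start, with 28 of the 32 genes having one between -60 and +50, and 4 members (Tacc3, Birc5, Nuf2, Nusap1) have no match of either kind.

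Of the 41 TTTGAA matches in the members, 19 lay before the start. In the shorter window from 150 bases before to 50 after the start, 78% of member genes still held TTTGAA, against 12.8% of all genes and 11.2% of all promoters. The base taken as the start was the annotated gene start for 22 of the 41 genes, and for the others a different transcript start was used. Members without either motif were found among the frequent and the rarer ones. Tacc3 and Birc5 lacked both motifs and were read in 45 and 39 cells, and Nuf2 and Nusap1, which also lacked both, were read in 23 and 22.

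The members were read in few cells each, near the share over all gene rows with a read. A read of a member was found in a median of 17.5% of the cells, beside 16.1% over the 12801 gene rows with a read in any cell. One member alone, Bub3, was read in more than 50% of cells. Another 15 were read in 20 to 40% of cells, 31 in 10 to 20%, and 2 in fewer than 10%. The 49 genes gave 1391 detections of a gene in a cell, of which 70 were below 10 counts per 1000000 gene counts (CPM), the limit used from here on to call a member present. Cells had 271190 to 1226521 counts with spike-ins (median 760690) and 1552 to 4955 genes detected (median 3255). All intervals are exact 95% Clopper-Pearson intervals that cover counting error only.

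Bub3, a checkpoint protein that also works outside mitosis, was read in 70.6% of cells (interval 62.4 to 77.9%). Smc4, the condensin ATPase subunit, was read in 49 cells (34.3%, interval 26.5 to 42.7%). Cdk1 was also read in 49 cells. Smc2, the condensin partner of Smc4, was read in 46 cells (32.2%, interval 24.6 to 40.5%), and the spindle protein Tacc3 in 45 cells (31.5%, interval 24 to 39.8%). Birc5, the survivin subunit of the passenger complex, and Top2a, topoisomerase II alpha, were each read in 39 cells (27.3%, interval 20.2 to 35.3%). Cks2, a small Cdk-binding protein, followed with 36 cells (25.2%, interval 18.3 to 33.1%). Apart from Bub3, these frequent members had intervals that overlapped from Smc4 down to Cks2, so counting error leaves their order unsettled.

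The rarest members included checkpoint, spindle, kinetochore and cytokinesis genes. Ttk, the Mps1 checkpoint kinase, was read in 11 cells (7.69%, interval 3.90 to 13.3%). Kif2c, a kinesin that takes microtubule ends apart, was read in 14 cells (9.79%, interval 5.46 to 15.9%). Oip5, which helps to load the centromeric histone, was read in 15 cells (10.5%), and the centromere protein Cenpi in 16 (11.2%). Aspm, a spindle pole protein, was read in 17 cells (11.9%), and Ckap2, a microtubule protein, and Ect2, the exchange factor that switches on RhoA for cytokinesis, in 18 each (12.6%). Kif23, Bub1b and Cdc20 shared the next place with 19 cells (13.3%, interval 8.19 to 20.0%). Per kilobase of exon, the pooled level was highest for Ccnb2 at 63.1 CPM, with Bub3 at 31.5, Birc5 at 27.9, Pbk at 27.4 and Cdc20 at 27.2 CPM. It was lowest for Aspm at 1.73 CPM. The Cdc20 value rested partly on 1 cell, without which it was 17.7 CPM per kilobase, and it was 38.8 on plate 1 and 2.499 on plate 2. Ccnb2 was at 78.7 CPM per kilobase on plate 1 and 29.8 on plate 2, and Birc5 at 34.1 on plate 1 and 14.8 on plate 2. Over the 49 genes, exon length and share of cells had a Spearman rho of 0.05.

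The number of members in a cell separated the cells widely. Of the 143 cells, 10 had none, 66 had 1 to 3, 30 had 4 to 7 and 11 had 8 to 14. No cell had 15 to 22. Another 10 cells had 23 to 34 members, and 16 had 35 to 47. In 23 cells no member apart from Bub3 was present. The empty stretch between 14 and 23 was used, after it had been seen, to set apart 26 cells with 23 to 47 members from the remaining cells with 0 to 14, called member-poor cells here. The 26 cells were 18.2% of the total (interval 12.2 to 25.5%). They were 19 of 95 cells on plate 1 (20.0%, interval 12.5 to 29.5%) and 7 of 48 on plate 2 (14.6%, interval 6.07 to 27.8%), so both plates held such cells and the intervals overlapped. The 26 cells had a median of 38.5 members and the member-poor cells a median of 2. At least 8 members were present in 37 cells (25.9%).

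**Figure D2:**
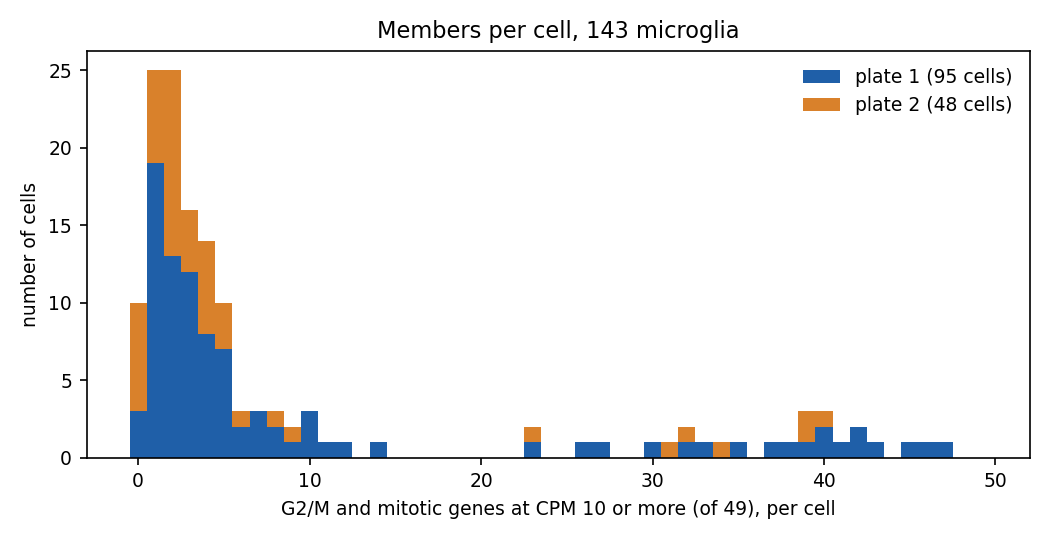
Number of cells (y axis) by number of members at CPM 10 or more (x axis, of 49), stacked by plate. The bars stop at 14 members (9 on plate 2) and begin again at 23 on both plates.

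The 26 cells held 944 of the 1321 occurrences at CPM 10 or more (71.5%). Members took 1.00% of all gene counts in the 26 cells and 0.0622% in the member-poor cells. The summed level of the members ran from 3190 to 19567 CPM in the 26 cells (median 9850) and from 0 to 3904 CPM in the member-poor cells (median 407). These values describe cells that were set apart by the same genes and carry no test. Median totals were 743063 counts in the 26 cells and 761057 in the member-poor cells. Other measures of RNA recovered moved with the members. A median of 3741 genes was detected in the 26 cells and 3110 in the member-poor cells, and the ratio of gene to spike-in counts had a median of 29.5 in the 26 cells and 23.7 in the member-poor cells. Over all cells, the number of members had a rho of 0.62 with genes detected, 0.51 with that ratio and 0.13 with gene counts. When every cell was thinned to 259613 gene counts, the 26 cells kept at least 23 members and the member-poor cells had at most 13. Whether more RNA per cell accounts for part of the relation was not tested.

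**Figure D3:**
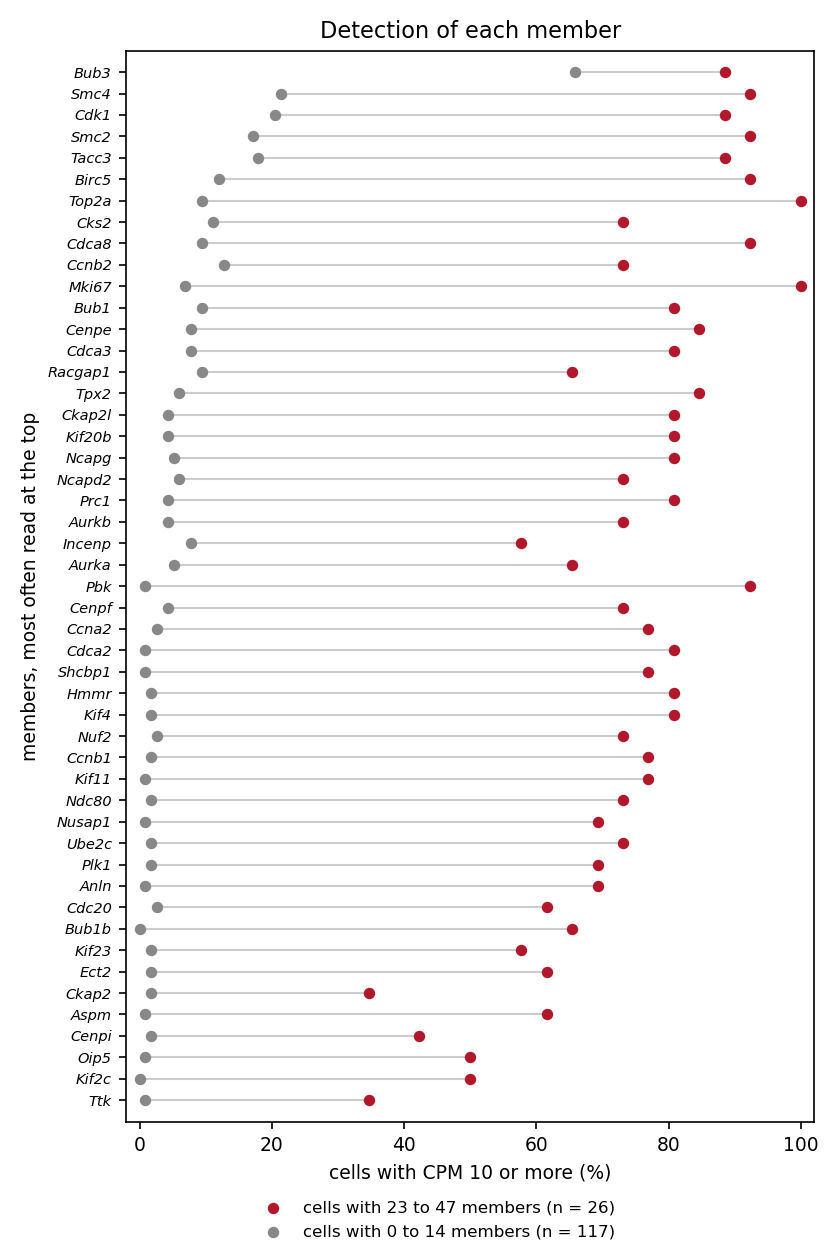
Share of cells (x axis, %) with CPM 10 or more of each member, in the 26 cells with 23 to 47 members (red) and the member-poor cells with 0 to 14 (grey). Bub3 is the one member with a high share in the grey group, with 77 cells, while Ttk and Ckap2 stay low in the red group at 9 of 26.

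In the 26 cells, 25 members were present in at least 20 cells and 2 in all of them. In the member-poor cells, 24 members were present in 3 cells or fewer and 12 in 10 cells or more. The 2 groups were set by the number of these same genes, which favours such counts. No count over all genes stands beside them, so they are descriptions. Mki67, the Ki-67 protein that coats mitotic chromosomes, was at 73.8 to 2137 CPM (median 540) in the 26 cells and at 0 to 483 CPM (median 0) in the member-poor cells, where 8 cells had it. Top2a was at 71.5 to 1311 CPM (median 621) in the 26 cells and at 0 to 318 CPM (median 0) in the member-poor cells, where 11 cells had it. For both genes the ranges overlapped because a few of the member-poor cells reached the lower levels of the 26. Bub3 was at 0 to 1062 CPM (median 307) in the 26 cells and at 0 to 1377 CPM (median 154) in the member-poor cells, and it hardly separated them.

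Among the genes of mitotic entry and exit, Cdk1 was the one most widely present outside the 26 cells. It was at 0 to 819 CPM (median 260) in the 26 cells and at 0 to 551 CPM (median 0) in the member-poor cells, and was present in 23 of the 26 cells and 24 of the member-poor cells. Its cyclins were scarcer there. Ccnb1, a B-type cyclin, was present in 20 of the 26 cells (median 200, highest 985 CPM) and 2 of the member-poor cells (highest 136.8 CPM). Ccna2, the A-type cyclin of S and G2, was present in 20 of the 26 cells (median 235, highest 831 CPM) and 3 of the member-poor cells (highest 26.1 CPM). Among the 26, Ccnb1 was present in 17 of the 19 cells of plate 1 (median 368 CPM) and 3 of the 7 of plate 2 (median 0). Ccna2 was present in 14 of the 19 and 6 of the 7. Ccnb2 differed from Ccnb1 and Ccna2. It was present in 19 of the 26 cells (median 173, highest 1011 CPM) and 15 of the member-poor cells, where its highest level was 1146 CPM. Of the 24 Cdk1-bearing cells among the member-poor cells, 22 had none of the 3 cyclins, and 0 of the 26 cells had Cdk1 without a cyclin. A cyclin without Cdk1 was present in 2 of the 26 cells and 16 of the member-poor cells. The 26 cells were chosen by their number of members, which favours a cyclin beside Cdk1. Most member-poor cells had none of the 3 cyclins, with or without Cdk1. These counts are therefore descriptions, and a tie between Cdk1 and its cyclins was not tested.

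Plk1, the polo kinase of mitotic entry, was present in 18 of the 26 cells (median 194, highest 908 CPM) and 2 of the member-poor cells (highest 456 CPM). Cdc20, which activates the anaphase-promoting complex, was present in 16 of the 26 cells (median 124.04, highest 2427 CPM) and 3 of the member-poor cells (highest 348 CPM). Among the 26, Cdc20 was present in 14 of the 19 cells of plate 1 and 2 of the 7 of plate 2. Its ubiquitin-conjugating partner Ube2c was present in 19 of the 26 cells and 2 of the member-poor cells. A total of 11 members were present in 0 or 1 of the member-poor cells, which were set apart by these same genes. No count over all genes stands beside the 11 members, of which 3 are described here. Pbk, a mitotic kinase, was present in 24 of the 26 cells and 1 of the member-poor cells. Bub1b, the BubR1 checkpoint protein, was present in 17 of the 26 cells and 0 of the member-poor cells, where its highest level was 8.77 CPM. Kif2c was present in 13 of the 26 cells, and no read of it was found in the member-poor cells.

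In these counts the order from frequent to rare was partly nested. For 46 of the 49 members, the cells that had the gene held a median of at least 20 other members. The exceptions were Bub3 with a median of 3, Cdk1 with 11 and Smc4 with 13. Cells with Kif2c held a median of 39 other members and no fewer than 30, and cells without it a median of 3. Cells with Bub1b had no fewer than 25 other members. Ttk, the rarest member, was looser: its cells held a median of 38.5 others but as few as 8. The 26 cells, set apart by these same genes, held 71.5% of the member occurrences, which favours a high median of others. No count over all genes or over another list stands beside the 46 of 49. Whether the nesting is particular to the members was not tested.

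**Figure D4:**
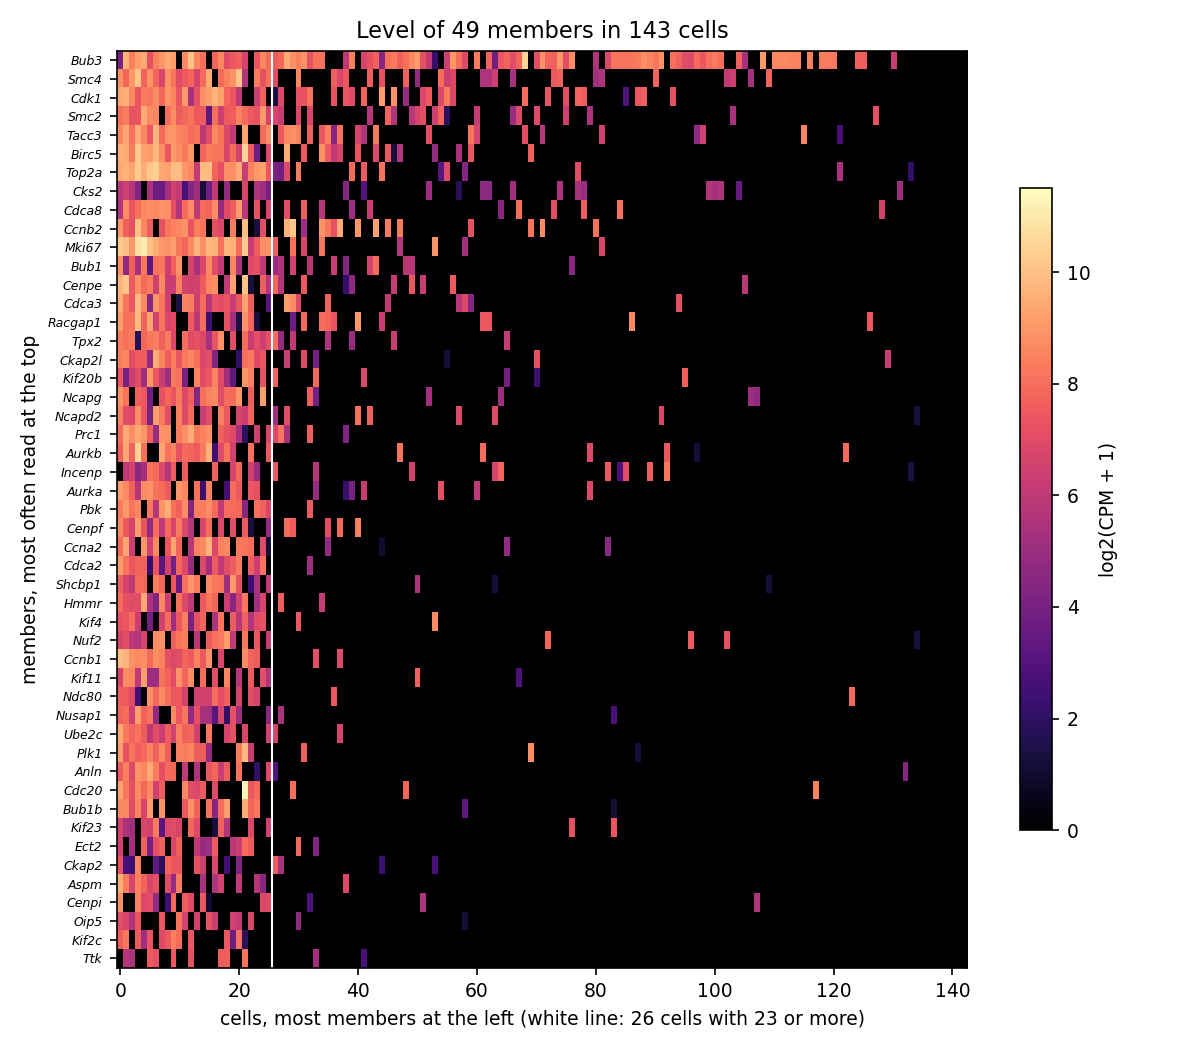
Level of each member (rows, most often read at the top) in each of the 143 cells (columns, most members at the left), as log2(CPM + 1) by colour; the white line closes the 26 cells with 23 or more members. Right of the line the Bub3 row stays filled, the Smc4, Cdk1, Smc2 and Tacc3 rows are scattered, and the lower rows are almost empty.

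Complete protein complexes were set against single subunits. The 26 cells were chosen by their number of members, which favours complete complexes in them, so these counts are descriptions. Cdk1 with all 3 cyclins was present in 12 of the 26 cells and 0 of the member-poor cells, while at least 1 of the 4 genes was present in 25 of the 26 cells and 40 of the member-poor cells. All 4 condensin genes in the set (Smc2, Smc4, Ncapd2, Ncapg) were present in 13 of the 26 cells and 0 of the member-poor cells, and at least 1 was present in all 26 cells and 46 of the member-poor cells. The 4 passenger genes Aurkb, Birc5, Incenp and Cdca8 were all present in 9 of the 26 cells and 0 of the member-poor cells, and at least 1 was present in 25 of the 26 cells and 33 of the member-poor cells. Incenp, the scaffold of that complex, was the member that held the count down, with 15 of the 26 cells. The kinetochore pair Ndc80 and Nuf2 was present in 14 of the 26 cells and 0 of the member-poor cells. Bub1, Bub1b and Bub3 stood together in 11 of the 26 cells and 0 of the member-poor cells. Kif23 and Racgap1, the 2 subunits of centralspindlin, stood together in 12 of the 26 cells and 0 of the member-poor cells. Aurka with its spindle activator Tpx2 was the one pair also complete outside, in 14 of the 26 cells and 1 of the member-poor cells.

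Within the 26 cells the members varied less in step. Over all 143 cells the 1176 pairs of members had a median rho of 0.57 and none was below 0. Over the 26 cells the median was 0.16, with 251 pairs below 0 and 55 at 0.5 or more. The highest was Ube2c with Cenpf (rho 0.75), then Birc5 with Cenpf (0.69) and Cenpe, the kinetochore kinesin, with Mki67 (0.69). Ccnb1 and Cdc20 had a rho of 0.66. The lowest was Ttk with Oip5 (-0.49). These coefficients share cells, library and depth and are descriptions only.

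Genes of the S phase, the time of DNA replication, were set beside the members. The list held 53 genes. Pcna (the sliding clamp) was read in most cells, 87, followed by Rfc2 with 85, Mcm3 with 80 and Slbp with 79. Mcm6 (of the replicative helicase) was read in 68 cells and Rrm1 (a subunit of ribonucleotide reductase) in 59. The 26 cells had 7 to 43 S-phase genes at CPM 10 or more (median 33), and the member-poor cells had 0 to 38 (median 6). At least 10 S-phase genes were present in 25 of the 26 cells and 36 of the member-poor cells. At least 20 were present in 22 of the 26 and 21 of the member-poor cells. Those 21 cells thus had many S-phase genes and 2 to 14 members (median 5), beside a median of 2 members in the other 96 cells. Over all cells the number of members had a rho of 0.67 with the number of S-phase genes, and over the member-poor cells 0.48.

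**Figure D5:**
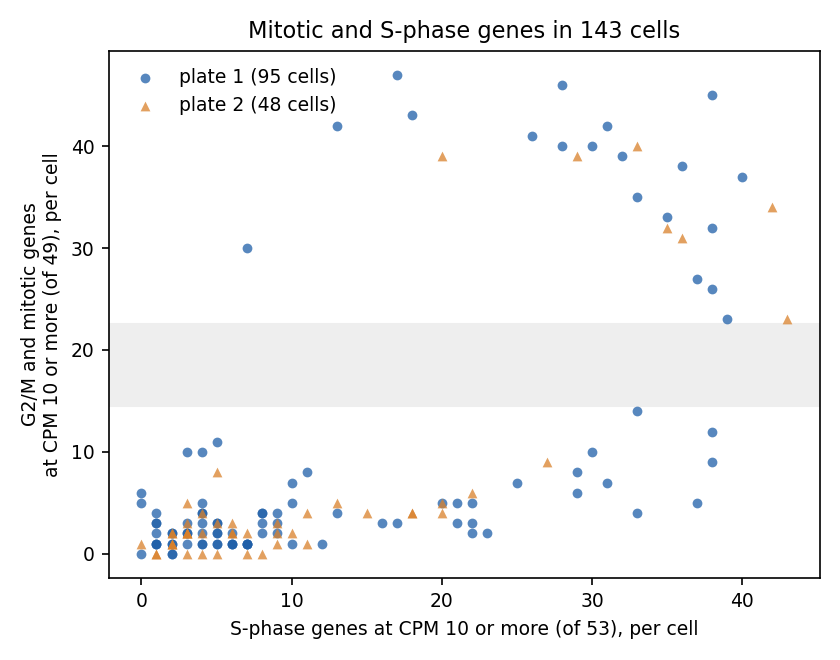
Number of members (y axis, of 49) against number of S-phase genes (x axis, of 53) at CPM 10 or more in each of the 143 cells, by plate. A lower band runs out to 38 S-phase genes with 14 members or fewer, and in the upper group of 26 cells the points with most members have fewer S-phase genes.

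Within the 26 cells the direction turned over: the rho was -0.60, with -0.54 over the 19 cells of plate 1 and -0.77 over the 7 of plate 2. The 10 cells with 40 or more members had 13 to 38 S-phase genes (median 28), and the 10 cells with 23 to 34 had 7 to 43 (median 37.5). All of Ccnb1, Cdc20, Plk1 and Aurka were present in 11 of the 26 cells, with a median of 30 S-phase genes and 42 members. Most of these 11 cells were on plate 1, since Cdc20 was present in 2 of the 7 cells of plate 2. None of the 4 genes was present in 3 of the 26 cells, which had 35 to 43 S-phase genes. By member, the rho of its level with the number of S-phase genes over the 26 cells had a median of -0.34 over the 49. It was lowest for Birc5 (-0.82), then for Ckap2l and Cenpf (-0.64 each), Plk1 (-0.63) and Ube2c (-0.61), and 12 members were at -0.5 or below. It was above 0 for 4 members, Kif4 (0.12), the condensin genes Ncapg (0.09) and Smc4 (0.01), and Pbk (0.01). No median or count over all genes in the 26 cells stands beside these, so whether the leaning is particular to the members was not tested.

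Of the 49 members, 34 were present in a larger share of the 21 cells with many S-phase genes than of the other 96, 13 in a smaller share and 2 in neither. No such count over all genes stands beside this one, and over all cells the number of members moved with genes detected (rho 0.62). Whether the leaning is particular to the members was not tested. The examples given here were chosen after their values were seen, and no difference was tested. Cdk1 was present in 14 of these 21 cells and 10 of the other 96. Bub1 was present in 8 of the 21 and 3 of the 96, and Top2a in 7 of the 21 and 4 of the 96. Smc4 was present in 9 of the 21 and 16 of the 96, and Aurka in 5 of the 21 and 1 of the 96. Among the 13 with a smaller share, Birc5 was present in 1 of the 21 cells and 13 of the 96, and Ccnb2 in 1 of the 21 and 14 of the 96. In all, 11 members were present in 0 of the 21 cells.

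Links to other genes were described by the Spearman rho between a gene's CPM and the number of members, and a gene was called linked where rho was at least 0.3 in size with the same sign on both plates. Of the 7789 genes read in at least 10% of cells, 287 were linked upward (3.68%) and 4 downward (0.0514%), and the median rho was 0.07. For a member, the number of other members was used. Among the 47 members that met the filter, 44 were linked upward and 0 downward, with a median rho of 0.57, and Kif2c and Ttk were read in too few cells. Bub3 (rho 0.21), Racgap1 (0.53, with 0.26 on plate 2) and Incenp (0.32, with 0.12 on plate 2) were not linked. With genes detected held constant the members' median was 0.46 and that of all genes 0.00, and 35 of the 47 members were linked upward.

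Other genes of mitosis, outside the set, numbered 83, of which 54 met the filter and 35 were linked upward (median rho 0.45), against 17 linked and a median of 0.33 with genes detected held constant. Ran, the GTPase of spindle assembly and nuclear transport, had a rho of 0.54, Stmn1, which destabilises microtubules, 0.62, and Kpna2, a nuclear import receptor, 0.62. Gas2l3 and Zwint were read in more cells than Kpna2 and were not linked. Gas2l3 had a rho of 0.06, and Zwint 0.34 with 0.23 on plate 2. Of the 52 S-phase genes that met the filter, 38 were linked upward (median 0.43), with Rrm1 at 0.68. The most often read, Pcna, Rfc2, Mcm3 and Slbp, had a rho of 0.50, 0.44, 0.44 and 0.30. Slbp, with 0.20 on plate 2, was not linked. With genes detected held constant, 12 of the 52 S-phase genes were linked and the median was 0.23. The 16 genes of the anaphase-promoting complex and its regulators, which Cdc20 and Ube2c serve, had a median of 0.16 and 3 linked. These were Fbxo5, an inhibitor of the complex (rho 0.51), Ube2s, which extends ubiquitin chains (0.47), and the RING subunit Anapc11 (0.34), and Fbxo5 alone was linked with genes detected held constant (0.37). The core subunit Anapc5, read in 26 of the 26 cells, had a rho of 0.29 and was not linked. Of 12 DREAM, MuvB and E2F genes that met the filter, 1 was linked, and the median was 0.19. Tfdp1, the dimer partner of E2F, was the linked gene at 0.42. Among 7 G1 cyclins and kinases 3 were linked, namely Cdk4 (0.34), Ccne1 (0.41) and Ccne2 (0.46), while Ccnd1 had a rho of 0.19. Among 4 Cdk inhibitors Cdkn2d was linked (0.36). With genes detected held constant none of these 5 genes was linked, with a rho of 0.21 for Tfdp1, 0.06 for Cdk4, 0.25 for Ccne1, 0.24 for Ccne2 and 0.24 for Cdkn2d. Cdkn1a, the p21 inhibitor, had a rho of 0.16 and was present in 20 of the 26 cells and 50 of the member-poor cells.

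Outside all cycle lists and histones, 149 of 7572 genes were linked upward (1.97%). The tubulins Tuba1b and Tubb5 were among the 3 highest. Tuba1b was at 122.2 to 967 CPM (median 582) in the 26 cells and at 0 to 551 CPM (median 205) in the member-poor cells, with a rho of 0.68. Tubb5 was at 1703 to 6371 CPM (median 3985) in the 26 cells and at 150 to 3495 CPM (median 1444) in the member-poor cells, with a rho of 0.64. Between them stood 2810417H13Rik (RefSeq symbol Pclaf), which encodes a Pcna-binding protein, with a median of 306 CPM in the 26 cells and 0 in the member-poor cells (rho 0.67). The next were the histone chaperone Asf1b (0.62), Ranbp1, a partner of Ran (0.58), Dnajc9 (0.58), the nucleosome-binding protein Hmgn2 (0.57), Fignl1 (0.55), Rpa1, a single-strand DNA-binding protein (0.55), and Ptma (0.54). Asf1b, Rpa1 and the product of Pclaf have known parts in DNA replication, and tubulins build the spindle, although no cycle list held these genes.

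Downward links were 4 in number. Gpx3, a secreted glutathione peroxidase, was at a median of 412 CPM in the 26 cells and 633 in the member-poor cells (rho -0.41). Sirpa, the receptor for the CD47 signal, was at a median of 734 CPM in the 26 cells and 1279 in the member-poor cells (rho -0.41). Apoe, the lipid carrier that marks PAM, was at 9840 to 54375 CPM (median 24406) in the 26 cells and at 9896 to 82750 CPM (median 34194) in the member-poor cells (rho -0.40). Ypel3 had a rho of -0.38. With genes detected held constant, Apoe had a rho of -0.10, Ypel3 -0.18, Gpx3 -0.22 and Sirpa -0.37, so Sirpa alone of the 4 stayed beyond -0.3. With gene counts scaled to spike-in counts, 0 genes were linked downward and Apoe had a rho of -0.07. Of 26 PAM genes, 2 were linked downward (Gpx3 and Apoe) and the median rho was -0.11. With genes detected held constant the PAM median was -0.15, beside 0.00 over all genes. Of 21 homeostatic microglial genes none was linked, and the median was 0.02, or 0.08 with genes detected held constant. Of 25 lysosomal genes and 26 genes of oxidative phosphorylation none was linked. Medians were -0.11 for the lysosomal list and 0.11 for oxidative phosphorylation, beside 0.07 over all genes. With genes detected held constant the medians were -0.04 for the lysosomal list and 0.01 for oxidative phosphorylation. Of 14 glycolysis genes 1 was linked upward, Ldha (rho 0.37, and 0.00 with genes detected held constant).

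The label microglia was checked on defining markers. All 10 microglial markers were read in at least 50% of cells, and their summed level was 18413 to 36385 CPM (median 28778) in the 26 cells and 11128 to 49414 CPM (median 30154) in the member-poor cells. Of 10 markers of granule neuron progenitors, the dividing neuronal precursors of the cerebellum at this age, 4 (Atoh1, Cntn2, Gli1, Pax6) were at 0, and the summed level was at most 16.7 CPM in the 26 cells and 211 in the member-poor cells. Of 11 oligodendrocyte-lineage markers 5 (Mobp, Mog, Olig1, Pdgfra, Sox10) were at 0, whereas Cnp was read in 51 cells and Cspg4 in 25. The summed level of this list was 0 to 535 CPM (median 90.3) in the 26 cells and 0 to 629 CPM (median 7.12) in the member-poor cells. Its part in the member values was not tested. Of 8 border macrophage markers, Cd163, Cd209f and Lyve1 were at 0, whereas Stab1 was read in 87.4% of cells and Mrc1 in 55.9%. The summed level of this list had a median of 302 CPM in the 26 cells and 436 in the member-poor cells. The highest sum was 961 CPM in the 26 cells and 3382 CPM in the member-poor cells. Monocyte markers Ly6c2 and Plac8 were at 0, whereas Fn1 was read in 22 cells. Also at 0 were 3 of 8 astrocyte, 4 of 7 endothelial and mural, and 4 of 8 lymphocyte and neutrophil markers. The median summed level of each of these 4 lists was 0 in the 26 cells and in the member-poor cells.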

How the data were processed

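Single cells were sorted into 96-well plates and made into Smart-seq2 libraries with ERCC spike-ins, per the labels' protocols. The authors deposited 1 table of raw read counts per gene and cell, with 92 spike-in rows. Reads were trimmed with Trim Galore 0.4.3 and aligned with STAR 2.5.3a, with Picard and HTSeq also named and mm10 as the build, per the submitters' processing notes. The gene annotation and the strand setting are not given in the sources used here. In GENCODE M21, exons of 10 members overlap a coding gene on the opposite strand (among them Tacc3, Ncapg, Ccna2, Cdc20, Ube2c, Prc1 and Cdca8), so their reads may be shared with it. Counts carry no molecular identifiers. Summed counts equalled the labelled totals in 143 of 143 cells, and all cells carried the authors' quality pass.

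CPM was computed from these counts as counts per 1000000 gene counts, spike-ins left out. A member was present at CPM 10 or more. The 49 members and the other gene lists were chosen with earlier results of these data known. Named genes were the 8 most and the 8 least often read members, with ties, 8 set cycle genes (Mki67, Top2a, Cdk1, Ccnb1, Ccnb2, Ccna2, Cdc20, Plk1), complex members and the leaders of other lists. Also named were the 10 highest and 10 lowest linked genes outside the cycle lists read in at least 20% of cells, of which 4 were downward. Other members, Fbxo5, Anapc11 and other list genes were named after their values were seen. Spearman coefficients were computed from ranks with pandas 2.3.3 and numpy 2.4.6, and exact intervals with scipy 1.17.1, under Python 3.11.15. Plates were treated as technical batches. The steps were tested on simulated data. Alternatives were other limits, thinned counts, totals without Rn45s, spike-in scaling, other filters, a partial coefficient and each plate alone. Promoters are RefSeq's, build GRCm38.p6.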

Additional observations from a re-analysis of the deposited data

How the results depend on the processing

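No paired analysis was possible because all cells belong to 1 group and share no replicate numbers. The share of cells with 8 or more members was 25.9% of all cells and 18.8% on plate 2 alone, where 9 of 48 cells had them, and the cause was not tested. Outside the 49, 243 of 7742 genes were linked upward. With genes detected held constant 65 were linked and with spike-in scaling 477. Over the member-poor cells with 14 or fewer members, a choice made after seeing the data, 51 were linked. Downward links numbered 4, against 0 with spike-in scaling, where the median rho of all genes was 0.11 instead of 0.07. The causes were not tested. The limit at 15 members was also chosen after seeing the data, and the share above it stayed between 14.6 and 20.0% in every alternative run. Median member detection ranged between 14.6 and 20.0%. Of the 14 named genes outside the cycle lists, 6 were no longer linked with genes detected held constant (3 of them short of 0.3 on 1 plate alone). With spike-in scaling 4 were no longer linked (1 on a plate alone), and over the member-poor cells 6 (4 on a plate alone). None changed sign in any alternative run. With 143 cells, a member in 11 cells has an interval of 3.90 to 13.3%, so the order of the rarest members is not fixed.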

Other observations

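Single cells at the edges of the pattern may merit a look. The cell with fewest S-phase genes of the 26 (7 of 53), on plate 1, had 30 members with Cdc20 at 2427 CPM, Mki67 at 1210, Cenpe at 1074, Ccnb2 at 993, Plk1 at 908 and Ccnb1 at 426 CPM. Cdk1, Aurka and Pcna were at 0 in that cell, Top2a was at 76.6 CPM, and 2802 genes were detected, the fewest of the 26. It was singled out after its values were seen. The 11 cells with 8 to 14 members, 9 of them on plate 1, had 3 to 38 S-phase genes (median 27). Foxm1 and Mybl2, transcription factors that drive G2/M genes, were read in 11 and 8 cells. Foxm1 was present in 8 of the 26 cells and 2 of the member-poor cells, and Mybl2 in 6 of the 26 and 2 of the member-poor cells.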
